A study of Mus musculus with 9 samples.

Results

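Siglecs are lectins of the immunoglobulin superfamily that bind sialic acid at the ends of glycans. The 6 Siglec genes Siglec1, Cd33, Siglece, Siglecg, Siglecf and Siglec15 are described here in mouse tumours. The tumours grew from MC38, a line of colorectal carcinoma cells of the mouse. The genes were taken by symbol from the gene names of the count tables, and all 6 were found among 42454 names. The study compared 5 tumours of MC38 cells with a knockout of CD43 (CD43-KO, genotype CD43 KO) and 4 tumours of MC38 cells with a vector (Vec, genotype WT). Both were carried by C57BL/6J mice and taken at day 21. The labels place the knockout in the implanted cells and give no change to the host, whose leukocytes also express Spn, the gene for CD43. The sources used here do not say whether the CD43-KO cells were 1 clone, and give no age or sex of the mice. Each library was made from RNA of whole tumour tissue, so fewer cells of a type and less RNA per cell cannot be told apart.

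Siglecs sit mostly on leukocytes and read the sialic acid of their own or of neighbouring cells. Most CD33-related Siglecs carry tyrosine motifs (ITIMs) in their tails, which recruit the phosphatases SHP-1 and SHP-2 and dampen activation. Mouse CD33 lacks the canonical ITIM and, like Siglec-15, is known to pair with the adaptor DAP12, which carries an activating motif (ITAM). Sialoadhesin, the product of Siglec1, has no such motif and works as an adhesion receptor of macrophages. CD43 is a heavily sialylated mucin of leukocytes, and mouse sialoadhesin has been reported to bind it. In tumours, sialylated ligands that engage inhibitory Siglecs are known as a brake on myeloid cells, natural killer cells and T cells.

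Total counts lay between 44814061 and 62194418 in CD43-KO libraries and between 60751738 and 72114385 in Vec libraries. Levels are in CPM, counts scaled to a common library size by TMM factors (trimmed mean of M values), and means are given with the SD over 5 CD43-KO and 4 Vec tumours. The targeted gene Spn had 25.6, 33.6, 31.2, 23.0 and 6.81 CPM in CD43-KO replicates 1 to 5, against 41.0, 43.7, 44.6 and 53.8 CPM in Vec replicates 1 to 4. All 5 CD43-KO tumours thus lay below all 4 Vec tumours, as for 3.5% of the 18243 names tested. The log2 fold change of Spn was -0.93 ± 0.36 (SE), with an adjusted p of 0.280 by edgeR's quasi-likelihood F test. CD43-KO replicate 3 stood apart from the other libraries. Its summed skeletal muscle markers reached 1202 CPM and its fat markers 743 CPM, against at most 128 and 69.7 CPM in any other tumour. Of the keratin markers of a carcinoma, Krt8 had at most 10 counts, Krt18 at most 12 and Krt19 between 11 and 52 in any library, while Cdh1, the gene for E-cadherin, had 377 to 968 counts. Summed epithelial markers were 7.94 to 16.8 CPM in CD43-KO and 10.1 to 16.2 CPM in Vec tumours.

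None of the 6 Siglec genes passed the test in either direction at an adjusted p under 0.05 (edgeR, Benjamini-Hochberg over 18243 names), and 0% of all names did. At an unadjusted p under 0.05, 1 of the 6 (Cd33) was higher in CD43-KO and 0 were lower, beside 7.75% higher and 7.63% lower among all names. DESeq2 called Cd33 higher and 0 of the 6 lower at its adjusted p, beside 1.48% higher and 2.18% lower of 16733 names. Limma voom called 0 of the 6, beside 2.72% of all names in either direction. Log2 fold changes were above 0 for Siglec1, Cd33, Siglecg and Siglecf and below 0 for Siglece and Siglec15, with a median of 0.31. The median over all names was 0.03, with 54% above 0. The groups overlapped in each of the 6 genes, whereas 2.08% of names had all CD43-KO tumours above all Vec tumours and 3.5% had all below.

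**Figure D1:**
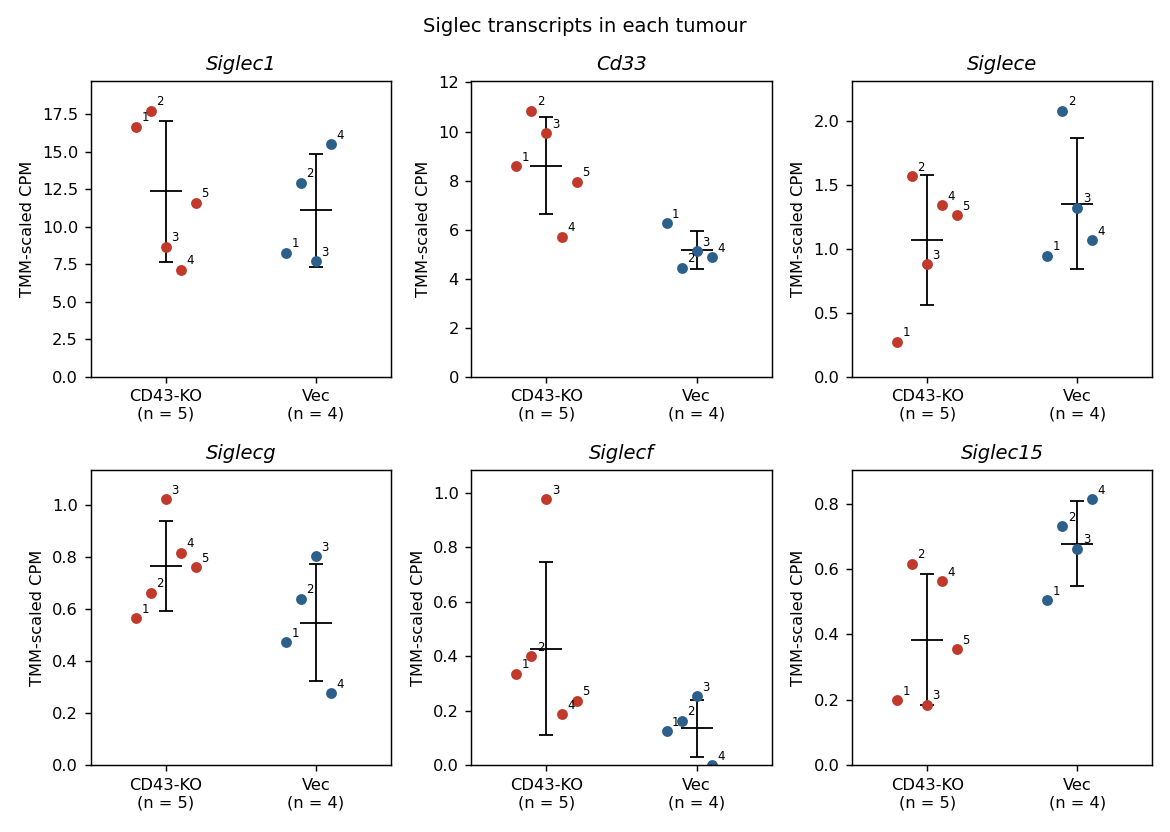
TMM-scaled CPM of the 6 Siglec genes in each tumour, with CD43-KO (red, n = 5) left of Vec (blue, n = 4). Numbers beside points are replicates and bars are the mean and SD. The groups overlap in every panel, with 4 of 5 CD43-KO tumours above all Vec tumours for Cd33 and 3 of 5 below all Vec tumours for Siglec15.

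The genes were far from equal in level. Since counts grow with transcript length, levels were ranked by CPM per kb of the longest protein-coding transcript. Siglec1 averaged 1.94 ± 0.738 CPM per kb in CD43-KO and 1.74 ± 0.589 CPM per kb in Vec tumours. Cd33 averaged 1.50 ± 0.346 CPM per kb in CD43-KO and 0.904 ± 0.134 CPM per kb in Vec tumours. These were the most abundant of the 6. Siglece averaged 0.578 ± 0.275 CPM per kb in CD43-KO and 0.734 ± 0.276 CPM per kb in Vec tumours. Siglec15 averaged 0.332 ± 0.173 CPM per kb in CD43-KO and 0.586 ± 0.113 CPM per kb in Vec tumours. This leaves out a copy name of Siglec15, described below, with a mean of 0.413 CPM over all tumours beside 0.514 CPM for Siglec15. The order of Siglec15 and Siglece is therefore uncertain. Siglece and Siglec15 were less abundant than the myeloid receptors above, and Siglecg and Siglecf, known from B cells and eosinophils, came last. Siglecg averaged 0.298 ± 0.0671 CPM per kb in CD43-KO and 0.214 ± 0.0877 CPM per kb in Vec tumours. Siglecf averaged 0.164 ± 0.122 CPM per kb in CD43-KO and 0.0521 ± 0.0403 CPM per kb in Vec tumours. Each gene's range over the 9 tumours overlapped that of its neighbour in this order. The ends of the order did not overlap, with 1.12 to 2.78 CPM per kb for Siglec1 and 0 to 0.374 CPM per kb for Siglecf.

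Of the 6 genes, 4 lie close together on chromosome 7. In the NCBI RefSeq annotation of GRCm38.p6, Siglecf spans chr7:43351341-43359475 and Siglecg chr7:43408192-43418349, both on the plus strand. Cd33 spans chr7:43527399-43537424 and Siglece chr7:43648882-43672044, both on the minus strand. Siglec1 lies at chr2:131067801-131086778 on the minus strand. In the GENCODE annotation, no other gene overlaps any of the 6, on either strand.

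Start-site windows were found for Siglecf, Siglecg, Cd33 and Siglece in the RefSeq table of GRCm38.p6. The windows of Siglecf (chr7:43351091-43351340, plus strand) and Cd33 (chr7:43533172-43533421, minus strand) are the 250 bases before each start in that table. That of Siglecf ends just before the gene's first base. For Cd33 an internal start was used, 4253 bases inside the gene span given above. They are shown because both genes had an exact p under 0.05 below and because their windows share a run of 16 bases, while no other pair among the first listed windows of the 4 genes shares more than 10. Capitals mark that run and, in Cd33, TGTGGT.
Siglecf: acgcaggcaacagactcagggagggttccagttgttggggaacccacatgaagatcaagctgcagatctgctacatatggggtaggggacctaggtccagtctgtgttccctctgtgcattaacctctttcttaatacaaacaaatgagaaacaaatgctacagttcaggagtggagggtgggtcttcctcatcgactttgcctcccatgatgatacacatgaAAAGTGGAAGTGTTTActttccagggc
Cd33: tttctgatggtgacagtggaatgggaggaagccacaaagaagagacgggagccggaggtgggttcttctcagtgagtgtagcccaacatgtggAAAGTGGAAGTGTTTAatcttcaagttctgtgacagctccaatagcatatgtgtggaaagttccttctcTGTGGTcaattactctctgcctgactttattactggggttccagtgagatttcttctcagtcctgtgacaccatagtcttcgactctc

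The shared run ends 11 bases before the start in Siglecf and 141 bases before it in Cd33. It holds GGAAGT, a form of the sequence bound by ETS factors such as PU.1, a regulator of myeloid genes. GGAAGT occurs on either strand in 19.7% of 32851 start-site windows of the same length. TGTGGT, a form of the sequence bound by RUNX factors, occurs in 14% of all windows, and among the Siglec windows in that of Cd33. TTGCNNAA, of the kind bound by C/EBP factors, occurs in 9.56% of all windows and in none of the Siglec windows. The window of Siglece, also inside its gene, and both windows that the table lists for Siglecg hold 0 matches to the 3 motifs. GGAAGT and TGTGGT do not overlap in Cd33. The motifs were chosen after the sequences were seen, and a match describes letters and not a bound site.

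Sialoadhesin, encoded by Siglec1 and also called CD169, marks macrophages that hold on to sialylated cells. Siglec1 had 16.7, 17.8, 8.69, 7.15 and 11.6 CPM in CD43-KO replicates 1 to 5, against 8.29, 12.9, 7.69 and 15.5 CPM in Vec replicates 1 to 4. CD43-KO replicates 1 and 2 were the highest of the 9 tumours and CD43-KO replicate 4 was the lowest, so the range of Vec lay within that of CD43-KO. The means were 12.4 ± 4.72 CPM in CD43-KO and 11.1 ± 3.76 CPM in Vec tumours, and the log2 fold change was 0.16 ± 0.31 (adjusted p = 0.823, edgeR). The fold change rested on single tumours, as it was -0.0077 without CD43-KO replicate 2 and 0.36 without Vec replicate 4, and it was 0.41 by limma voom.

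Cd33 encodes the receptor that names the CD33-related branch, found on myeloid cells and their progenitors. Cd33 had 8.59, 10.9, 9.94, 5.70 and 7.96 CPM in CD43-KO replicates 1 to 5, against 6.25, 4.45, 5.13 and 4.88 CPM in Vec replicates 1 to 4. CD43-KO replicates 1, 2, 3 and 5 lay above all Vec tumours, and CD43-KO replicate 4 lay below Vec replicate 1. The means were 8.61 ± 1.98 CPM in CD43-KO and 5.18 ± 0.768 CPM in Vec tumours. The log2 fold change was 0.73 ± 0.20, with an adjusted p of 0.192 by edgeR, 0.0233 by DESeq2 and 0.0596 by limma voom. Cd33 was the sole gene of the 6 that any of these tools called. A two-sided exact permutation test of log2(CPM + 0.1) over all splits of the 9 tumours into 5 and 4 gave a difference of 0.70 (p = 0.0238), where the smallest p the design allows is 0.00794. The exact p was 0.0571 without CD43-KO replicate 1, 2, 3 or 5 (differences of 0.69, 0.61, 0.64 and 0.72) and 0.0286 without CD43-KO replicate 4 (difference of 0.84). It was 0.0357, 0.0714, 0.0536 and 0.0714 without Vec replicates 1 to 4 (exact, with differences of 0.79, 0.63, 0.70 and 0.68). With 1 tumour left out there are fewer splits, so the smallest possible p is larger than 0.00794. A p that rises above 0.05 in this way can reflect fewer tumours alone.

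Siglec-E, encoded by Siglece, is an inhibitory receptor of mouse neutrophils and macrophages. Siglece had 0.275, 1.57, 0.882, 1.35 and 1.27 CPM in CD43-KO replicates 1 to 5, against 0.947, 2.09, 1.32 and 1.07 CPM in Vec replicates 1 to 4. CD43-KO replicate 1, with 18 counts, was the lowest of the 9 tumours and Vec replicate 2, with 140 counts, the highest. The means were 1.07 ± 0.509 CPM in CD43-KO and 1.36 ± 0.510 CPM in Vec tumours, and the log2 fold change was -0.34 ± 0.45 (adjusted p = 0.725, edgeR). It was -0.06 without Vec replicate 2, -0.10 without CD43-KO replicate 1 and -0.53 without CD43-KO replicate 2, and limma voom gave -0.88 (adjusted p = 0.339).

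Siglec-G, encoded by Siglecg, is an inhibitory receptor best known from B cells. Siglecg had 0.565, 0.663, 1.02, 0.817 and 0.761 CPM in CD43-KO replicates 1 to 5, against 0.474, 0.641, 0.803 and 0.277 CPM in Vec replicates 1 to 4. CD43-KO replicates 3 and 4 lay above all Vec tumours, and none lay below them all. The means were 0.766 ± 0.172 CPM in CD43-KO and 0.549 ± 0.225 CPM in Vec tumours, and the log2 fold change was 0.47 ± 0.35 (adjusted p = 0.527, edgeR). It was 0.25 without Vec replicate 4, and limma voom gave 0.26 (adjusted p = 0.599). Of the B cell markers, Ms4a1, the gene for CD20, had 4 to 14 counts in CD43-KO libraries, against 0 to 5 counts in Vec libraries, too few to be tested. Fcer2a, the most abundant of the list, had a log2 fold change of -0.35 ± 0.25. Cd79b, Cd79a and Fcrla had 1.86 ± 0.92, 1.52 ± 0.46 and 0.90 ± 0.43. The summed level of the 9 B cell markers was 2.60 to 7.48 CPM in CD43-KO and 1.85 to 2.90 CPM in Vec tumours. Of these markers 5 of 9 were tested, 4 with a log2 fold change above 0, and their part in the Siglecg values was not tested.

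Siglec-F, encoded by Siglecf, is an inhibitory receptor of eosinophils and alveolar macrophages. Siglecf had 0.336, 0.401, 0.975, 0.187 and 0.237 CPM in CD43-KO replicates 1 to 5, against 0.126, 0.164 and 0.253 CPM in Vec replicates 1 to 3 and 0 counts in Vec replicate 4. These are 11 to 42 counts in CD43-KO and 0 to 18 counts in Vec libraries, and the 0 counts in Vec replicate 4 allow up to 3 counts, or 0.0554 CPM, by counting error alone. CD43-KO replicates 1, 2 and 3 lay above all Vec tumours, while CD43-KO replicates 4 and 5 lay below Vec replicate 3. The means were 0.427 ± 0.318 CPM in CD43-KO and 0.136 ± 0.105 CPM in Vec tumours. The log2 fold change was 1.60 ± 0.78 (adjusted p = 0.354, edgeR), and DESeq2 gave 1.63 with no adjusted p. On the log2(CPM + 0.1) scale the difference was 1.13 (exact permutation p = 0.0397), where the value of the library at 0 is set by the 0.1 CPM added. The fitted log2 fold change was 1.06 without CD43-KO replicate 3 and 1.20 without Vec replicate 4. The difference on the log2(CPM + 0.1) scale was 0.83 (exact p = 0.0857) without CD43-KO replicate 3 and 0.76 (exact p = 0.161) without Vec replicate 4. It was 1.16, 1.11, 1.31 and 1.25 (exact p = 0.0857, 0.0857, 0.0571 and 0.0571) without CD43-KO replicates 1, 2, 4 and 5. Without Vec replicates 1, 2 and 3 it was 1.16, 1.23 and 1.37 (exact p = 0.0893, 0.0714 and 0.0357). As for Cd33, the smallest possible p is larger with 1 tumour left out.

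Several genes that define eosinophils were at counts as low as those of Siglecf. Epx, the gene for eosinophil peroxidase, had 0 or 1 counts in CD43-KO and 0 to 4 counts in Vec libraries. Prg2, the gene for major basic protein, had 0 to 23 counts in CD43-KO and 0 to 4 counts in Vec libraries. Ccr3, the eotaxin receptor, had 56 counts in CD43-KO replicate 3 and 6 to 24 in the other CD43-KO libraries, against 0 to 15 in Vec libraries. CD43-KO replicate 3, the highest tumour for Siglecf, was thus also the highest for Prg2 and Ccr3. The most abundant markers of the list, Ear2 and Alox15, are also known from macrophages. Ear2 averaged 3.50 ± 2.53 CPM in CD43-KO and 1.65 ± 0.729 CPM in Vec tumours, and Alox15 1.15 ± 0.252 CPM in CD43-KO and 0.7998 ± 0.217 CPM in Vec tumours. Both lay above Siglecf in CPM. The summed level of the 10 eosinophil markers was 2.42 to 11.1 CPM in CD43-KO and 2.04 to 3.17 CPM in Vec tumours. Of these markers 3 of 10 were tested, all with a log2 fold change above 0, and their part in the Siglecf values was not tested.

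Siglec-15, encoded by Siglec15, is a receptor of osteoclasts and of tumour macrophages. The gene lies at chr18:78042493-78057441 on the minus strand (RefSeq, GRCm38.p6). Siglec15 had 0.199, 0.617, 0.186, 0.562 and 0.355 CPM in CD43-KO replicates 1 to 5, against 0.505, 0.730, 0.662 and 0.813 CPM in Vec replicates 1 to 4. CD43-KO replicates 1, 3 and 5 lay below all Vec tumours, and replicates 2 and 4 lay within the range of Vec. The means were 0.384 ± 0.200 CPM in CD43-KO and 0.677 ± 0.130 CPM in Vec tumours, and the log2 fold change was -0.81 ± 0.42 (adjusted p = 0.374, edgeR). The difference on the log2(CPM + 0.1) scale was -0.77 (exact permutation p = 0.0714). These values are uncertain, because the tables also hold a copy name of Siglec15 whose counts equalled those of Siglec15 in CD43-KO replicates 1 and 3 and in Vec replicate 3. The copy name had 13, 34, 8, 23 and 18 counts in CD43-KO replicates 1 to 5, against 15, 44, 47 and 30 counts in Vec replicates 1 to 4. Siglec15 itself had 13, 40, 8, 33 and 21 counts in CD43-KO replicates 1 to 5, against 32, 49, 47 and 44 counts in Vec replicates 1 to 4. With the counts of both names added, the log2 fold change was -0.77.

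**Figure D2:**
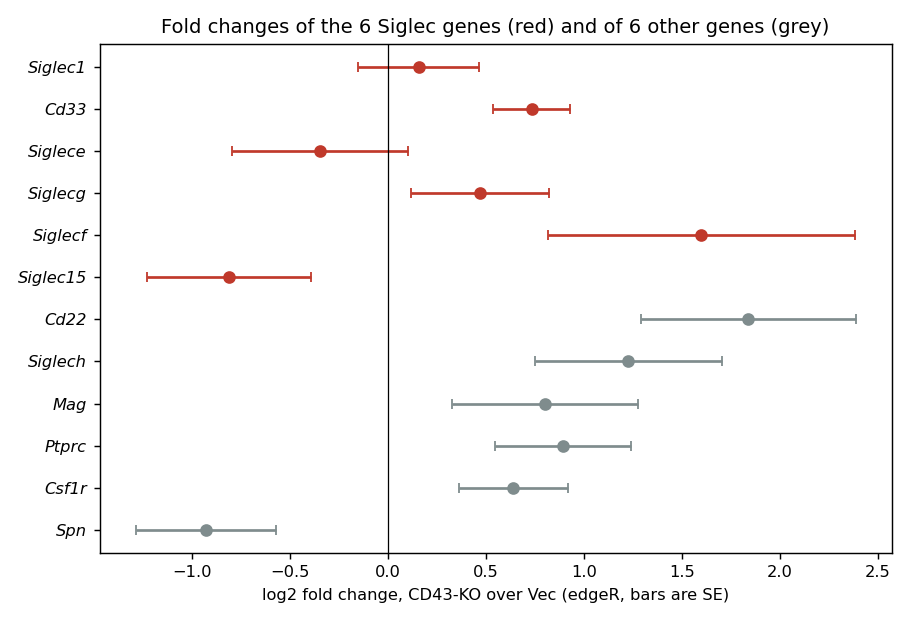
Log2 fold changes of CD43-KO over Vec by edgeR with SE bars, for the 6 Siglec genes (red) and for Cd22, Siglech, Mag, Ptprc, Csf1r and Spn (grey). Siglecf (1.60 ± 0.78) and Siglec15 (-0.81 ± 0.42) lie on opposite sides of 0, and no gene drawn passed an adjusted p under 0.05.

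Across tumours the 6 genes did not share a single order. CD43-KO replicate 2 was highest for Siglec1 and Cd33 and CD43-KO replicate 3 for Siglecg and Siglecf. Vec replicate 2 was highest for Siglece and Vec replicate 4 for Siglec15. Vec replicate 4 was also the lowest tumour for Siglecg and Siglecf, and CD43-KO replicate 3 the lowest for Siglec15. CD43-KO replicate 4 was the lowest of the CD43-KO tumours for Siglec1, Cd33 and Siglecf. That tumour also had the lowest level of Ptprc and of summed macrophage markers among CD43-KO tumours, with 37.1 CPM of Ptprc and 2581 CPM of macrophage markers.

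**Figure D3:**
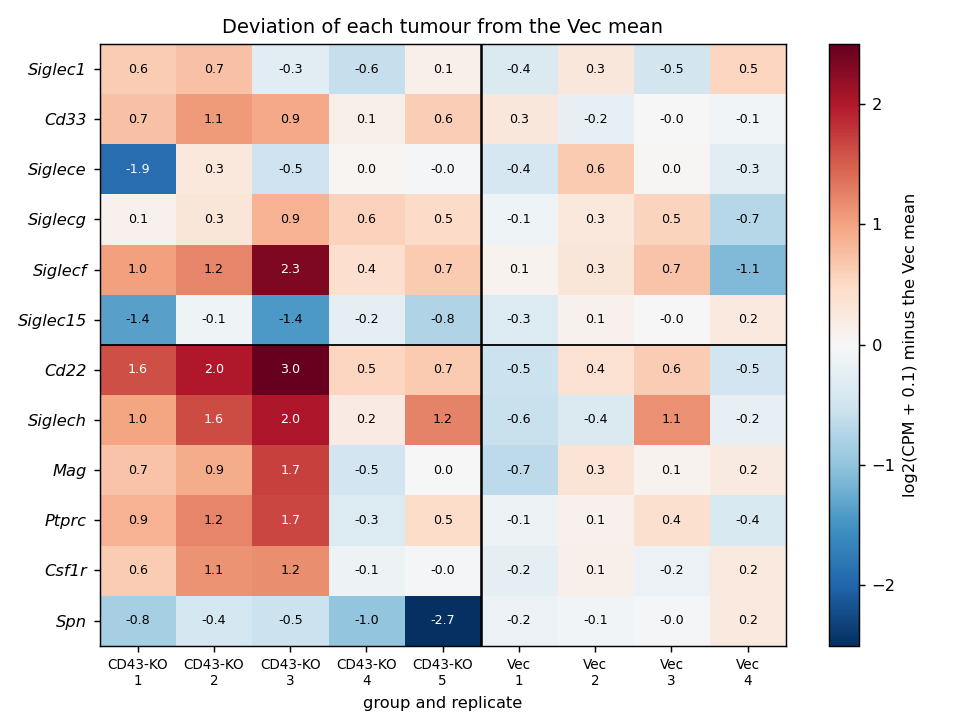
Each tumour's log2(CPM + 0.1) minus the Vec mean, by gene (rows, the 6 Siglec genes above the line) and tumour (columns, CD43-KO left of Vec). CD43-KO replicate 3 lies above the Vec mean for Siglecf, Siglecg and Cd33 and below it for Siglec15, Siglece and Siglec1.

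Leukocyte transcripts had higher means in CD43-KO tumours, so each Siglec was also set against a pan-leukocyte gene and a macrophage gene. The macrophage gene need not come from the cells that carry a given Siglec, such as the B cells and eosinophils named above. Ptprc, the gene for the pan-leukocyte antigen CD45, averaged 88.7 ± 42.5 CPM in CD43-KO and 47.7 ± 11.1 CPM in Vec tumours (log2 fold change 0.89 ± 0.35, adjusted p = 0.283, edgeR). Csf1r, the macrophage growth factor receptor gene, averaged 118 ± 47.4 CPM in CD43-KO and 76.0 ± 11.9 CPM in Vec tumours (0.64 ± 0.28, adjusted p = 0.314, edgeR). The tested markers of the macrophage and pan-leukocyte lists lay the same way, though CD43-KO replicate 4 lay below all Vec tumours in both sums. Summed macrophage markers ran from 2581 to 10261 CPM in CD43-KO and from 2795 to 4584 CPM in Vec tumours, with 13 of 15 tested and all 13 above 0 in log2 fold change. Summed pan-leukocyte markers ran from 359 to 1180 CPM in CD43-KO and from 363 to 489 CPM in Vec tumours, with 7 of 7 above 0. Ratios of counts within a library do not depend on scaling, and each shows unequal change, not which gene changed. They were compared by the exact permutation test on log2 ratios with 0.5 counts added, and the 18 exact tests on CPM and both ratios are unadjusted.

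Ratios of Cd33 to the leukocyte genes overlapped between the groups. Per 1000 counts of Ptprc there were 101, 100, 67.0, 154 and 123 counts of Cd33 in CD43-KO replicates 1 to 5, against 146, 88.1, 83.1 and 136 in Vec replicates 1 to 4. The range of Vec lay within that of CD43-KO. The log2 ratio differed by -0.06 (exact p = 0.833) against Ptprc and by 0.16 (exact p = 0.532) against Csf1r. Both were smaller than the difference of 0.70 on the log2(CPM + 0.1) scale. The difference in the ratio to Ptprc ran from -0.20 without CD43-KO replicate 4 to 0.10 without CD43-KO replicate 3, and that to Csf1r from 0.03 without CD43-KO replicate 5 to 0.33 without Vec replicate 1.

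Siglec15 was low in CD43-KO tumours relative to the macrophage gene. Per 1000 counts of Csf1r there were 1.70, 3.74, 1.11, 8.17 and 4.79 counts of Siglec15 in CD43-KO replicates 1 to 5, against 7.85, 8.84, 9.78 and 9.10 in Vec replicates 1 to 4. CD43-KO replicates 1, 2, 3 and 5 lay below all Vec tumours, and replicate 4 lay between Vec replicates 1 and 2. The log2 ratio to Csf1r differed by -1.50 (exact p = 0.0317), and that to Ptprc by -1.72 (exact p = 0.0556), each with 4 of 5 CD43-KO tumours below all Vec tumours. With any tumour but CD43-KO replicate 4 left out, the ratio to Csf1r kept its sign and its p was above 0.05. Without CD43-KO replicate 4 the difference was -1.85 (exact p = 0.0286). As for Cd33, the smallest possible p is larger with 1 tumour left out. The exact p was 0.0571 without CD43-KO replicate 1, 2, 3 or 5 (differences of -1.29, -1.56, -1.14 and -1.66). The exact p was 0.0536, 0.0714, 0.0714 and 0.0714 without Vec replicates 1 to 4 (differences of -1.56, -1.50, -1.45 and -1.49). Against Ptprc the difference was -1.29 (exact p = 0.114) without CD43-KO replicate 3 and -2.18 (exact p = 0.0286) without CD43-KO replicate 4. The uncertainty from the copy name of Siglec15 holds here too. Osteoclast markers lay at 93.2 to 251 summed CPM in CD43-KO and at 81.6 to 112 summed CPM in Vec tumours, with 5 of the 7 tested above 0 in log2 fold change, and their part in the Siglec15 values was not tested.

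Siglece gave a similar direction with wider spread. Per 1000 counts of Ptprc there were 3.23, 14.5, 5.95, 36.2 and 19.7 counts of Siglece in CD43-KO replicates 1 to 5, against 22.2, 41.2, 21.5 and 29.9 in Vec replicates 1 to 4. CD43-KO replicates 1, 2, 3 and 5 lay below all Vec tumours, while replicate 4 lay above all but Vec replicate 2. The log2 ratio differed by -1.26 against Ptprc (exact p = 0.143) and by -1.04 against Csf1r (exact p = 0.175). Without CD43-KO replicate 1 these were -0.81 and -0.59 (exact p = 0.229 and 0.314), and without CD43-KO replicate 4 that to Ptprc was -1.68 (exact p = 0.0286). Neutrophil markers, the other cells known for Siglec-E, lay at 43.0 to 128 summed CPM in CD43-KO and at 32.1 to 114 summed CPM in Vec tumours, and Ly6g had at most 5 counts in any library. The neutrophil genes differed among themselves. S100a8, an alarmin gene, averaged 15.6 ± 15.3 CPM in CD43-KO and 18.4 ± 14.05 CPM in Vec tumours (-0.24 ± 0.88), and Mmp9, a protease gene, 15.3 ± 3.96 CPM in CD43-KO and 16.9 ± 3.63 CPM in Vec tumours (-0.14 ± 0.20). Csf3r, the receptor gene for granulocyte colony-stimulating factor, averaged 11.4 ± 6.08 CPM in CD43-KO and 4.15 ± 0.550 CPM in Vec tumours (1.45 ± 0.34), and its adjusted p was 0.167 by edgeR, 0.00207 by DESeq2 and 0.0409 by limma voom. Trem1, a receptor gene of myeloid cells, averaged 8.71 ± 0.878 CPM in CD43-KO and 5.80 ± 0.474 CPM in Vec tumours (0.59 ± 0.13), and its adjusted p was 0.159 by edgeR, 0.00113 by DESeq2 and 0.0310 by limma voom. Of these markers 9 of 14 were tested, 6 with a log2 fold change above 0, and their part in the Siglece values was not tested.

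The ratios of the other genes were less uniform. Per 1000 counts of Ptprc there were 3.94, 3.70, 6.57, 5.05 and 3.67 counts of Siglecf in CD43-KO replicates 1 to 5, against 2.96, 3.24, 4.11 and 0 in Vec replicates 1 to 4. CD43-KO replicates 3 and 4 lay above all Vec tumours, and replicates 1, 2 and 5 lay between Vec replicates 2 and 3. The log2 ratio differed by 1.31 (exact p = 0.0317) with all tumours and by 0.37 (exact p = 0.161) without Vec replicate 4, the library with 0 counts of Siglecf. It differed by 1.36, 1.39, 1.18, 1.26 and 1.38 (exact p = 0.0857, 0.0857, 0.114, 0.114 and 0.0857) without CD43-KO replicates 1 to 5. Without Vec replicates 1, 2 and 3 it differed by 1.57, 1.61 and 1.71 (exact p = 0.0714, 0.0714 and 0.0179). Here too the smallest possible p is larger with 1 tumour left out. Against Csf1r the log2 ratio of Siglecf differed by 1.54 (exact p = 0.0873), by 0.38 (exact p = 0.339) without Vec replicate 4 and by 2.12 (exact p = 0.0179) without Vec replicate 3. Siglec1 differed by -0.65 against Ptprc (exact p = 0.302) and by -0.42 against Csf1r (exact p = 0.262). Without CD43-KO replicate 3 these were -0.32 and -0.17 (exact p = 0.486 and 0.429), and without Vec replicate 4 that to Ptprc was -0.34 (exact p = 0.607). Siglecg differed by -0.23 against Ptprc (exact p = 0.611) and by -0.0033 against Csf1r (exact p = 0.992). With single tumours left out, it ran from -0.53 without CD43-KO replicate 4 to -0.07 without CD43-KO replicate 2 against Ptprc, and from -0.37 without Vec replicate 4 to 0.26 without Vec replicate 3 against Csf1r. None of the p above 0.05 shows that a ratio was alike in both groups.

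**Figure D4:**
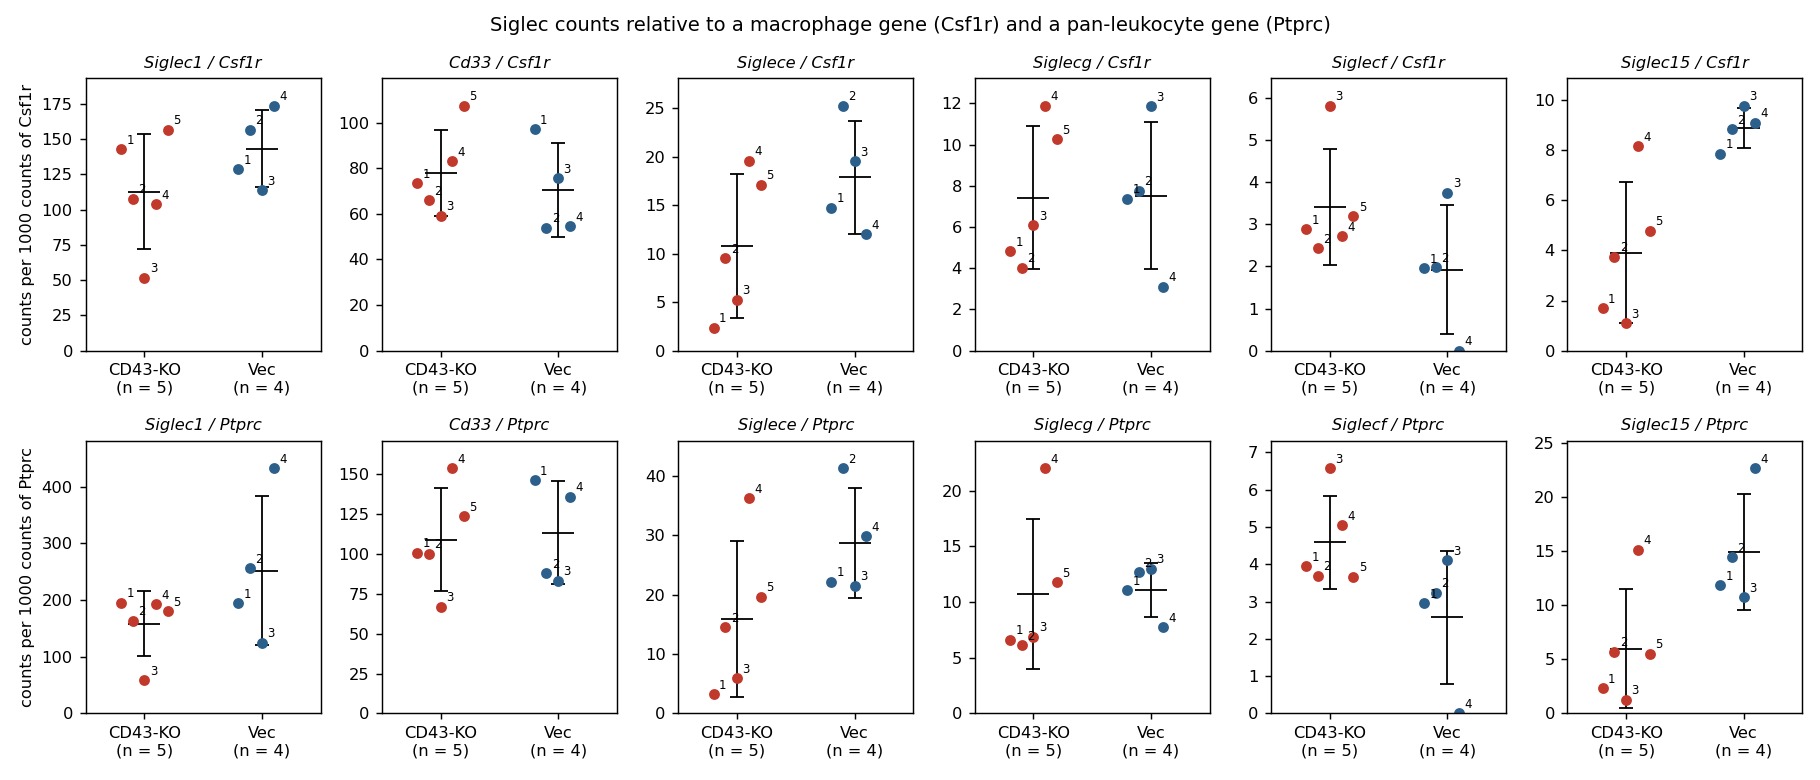
Counts of each Siglec gene per 1000 counts of Csf1r (top row) and of Ptprc (bottom row) in each tumour, CD43-KO (red) left of Vec (blue), with the mean and SD. For Siglec15 per Csf1r, 4 of 5 CD43-KO tumours lie below the lowest Vec tumour at 7.85, while the groups overlap widely for Cd33.

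The other mouse Siglec genes in the tables are Cd22, an inhibitory receptor of B cells, Siglech, a marker of plasmacytoid dendritic cells and some macrophages, and Mag, a sialic acid receptor of myelin. All 3 were tested and had log2 fold changes above 0, with a median of 1.23, and 0 of 3 passed edgeR's adjusted p. Cd22 had 2.83, 3.76, 7.36, 1.29 and 1.42 CPM in CD43-KO replicates 1 to 5, against 0.568, 1.15, 1.39 and 0.591 CPM in Vec replicates 1 to 4. CD43-KO replicates 1, 2, 3 and 5 lay above all Vec tumours. Its log2 fold change was 1.84 ± 0.55 (adjusted p = 0.214 by edgeR and 0.0212 by DESeq2), and the annotated antisense gene Gm29439 overlaps it, whose reads cannot be told apart without a strand setting. Siglech averaged 2.51 ± 1.15 CPM in CD43-KO and 1.07 ± 0.747 CPM in Vec tumours (log2 fold change 1.23 ± 0.48, adjusted p = 0.283, edgeR). The 8 plasmacytoid dendritic cell markers, Siglech among them, summed to 293 to 428 CPM in CD43-KO and 302 to 414 CPM in Vec tumours, with 5 of 8 above 0 in log2 fold change. Bst2 and Tcf4, with means of 262 and 58.2 CPM over all tumours, made up most of that sum (-0.11 ± 0.15 and -0.05 ± 0.14). Of the lower markers, Ccr9, Pacsin1, Klk1 and Cox6a2 had log2 fold changes of 1.53 ± 0.70, 1.16 ± 0.49, 0.99 ± 0.66 and 0.94 ± 0.53, and Ly6d had -0.84 ± 0.85. Cox6a2 spread widely, from 2.64 to 17.0 CPM in CD43-KO and from 2.37 to 4.39 CPM in Vec tumours, and limma voom gave it 0.54. Whether the muscle RNA of CD43-KO replicate 3 had a part in the Cox6a2 values was not tested. The part of these markers in the Siglech values was not tested. Mag averaged 1.19 ± 0.750 CPM in CD43-KO and 0.677 ± 0.207 CPM in Vec tumours (0.80 ± 0.48, adjusted p = 0.431, edgeR).

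Genes that act downstream of Siglecs lay above 0 as a rule, and 0 of them passed edgeR's adjusted p. Of the 8 ITIM partners, kinases and phosphatases that put on and read the phosphorylated motif, 8 had log2 fold changes above 0, with a median of 0.35 beside 0.03 over all names. At an unadjusted p under 0.05 there were 5 of them higher and 0 lower, beside 7.75% and 7.63% of all names. Inpp5d, the gene for the inositol phosphatase SHIP1, averaged 32.1 ± 11.7 CPM in CD43-KO and 20.9 ± 1.15 CPM in Vec tumours (0.62 ± 0.24, adjusted p = 0.284, edgeR). Socs3, whose human product is known to bind phosphorylated CD33 and send it to degradation, averaged 111 ± 13.9 CPM in CD43-KO and 91.8 ± 2.46 CPM in Vec tumours (0.27 ± 0.10, adjusted p = 0.273, edgeR). Src, a kinase, and Ptpn11, the gene for SHP-2, were the most abundant of this list, with log2 fold changes of 0.19 ± 0.14 and 0.16 ± 0.09.

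Of the 8 genes of the ITAM adaptor pathway, through which Siglec-15 signals and with whose adaptor mouse CD33 pairs, 8 were above 0, with a median of 0.51. At an unadjusted p under 0.05, 2 were higher, beside 7.75% of all names. Tyrobp, the gene for DAP12 itself, averaged 155 ± 103 CPM in CD43-KO and 89.4 ± 16.8 CPM in Vec tumours (0.79 ± 0.41, adjusted p = 0.374, edgeR). Its direction was thus the opposite of that of Siglec15 in these means. Syk, the kinase that binds the adaptor's motif, averaged 81.5 ± 6.49 CPM in CD43-KO and 66.9 ± 7.07 CPM in Vec tumours (0.29 ± 0.10, adjusted p = 0.255, edgeR). For Syk 5 of 5 CD43-KO tumours lay above all Vec tumours, as for 2.08% of all names. Vav1, an exchange factor of leukocytes, and Fcer1g, the gene of the Fc receptor gamma chain, had log2 fold changes of 0.75 ± 0.33 and 0.50 ± 0.34. These partners are leukocyte genes for the most part, and the tested macrophage and pan-leukocyte markers given above lay the same way, whose part was not tested.

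Genes that make the ligands showed no common direction. Of the 10 genes of sialic acid synthesis and transport, 6 were above 0 and 4 below, with a median of 0.04. At an unadjusted p under 0.05, 1 was higher, beside 7.75% of all names. Nans, the sialic acid synthase gene, averaged 114 ± 4.03 CPM in CD43-KO and 121 ± 14.8 CPM in Vec tumours (-0.09 ± 0.09), and Cmas, which activates sialic acid, 46.5 ± 2.57 CPM in CD43-KO and 46.1 ± 4.82 CPM in Vec tumours (0.01 ± 0.09). Cmah, which turns the acetyl form of sialic acid into the glycolyl form, averaged 2.95 ± 1.91 CPM in CD43-KO and 1.35 ± 0.633 CPM in Vec tumours (1.13 ± 0.49, adjusted p = 0.316, edgeR). Siae, a sialic acid esterase gene, had a log2 fold change of -0.18 ± 0.11.

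Of the 14 sialyltransferase genes that make the linkages most Siglecs bind, 12 were tested, and St6gal2 and St6galnac1 had 0 counts in all libraries. Of these 12, 5 were above 0 and 7 below, with a median of -0.15. At an unadjusted p under 0.05, 1 gene was higher, beside 7.75% of all names. That gene, St6galnac4, which adds sialic acid to short O-glycans, averaged 43.9 ± 5.47 CPM in CD43-KO and 35.5 ± 3.16 CPM in Vec tumours. All 5 CD43-KO tumours lay above all Vec tumours (0.31 ± 0.11, adjusted p = 0.263, edgeR), as for 2.08% of all names. St3gal2 and St3gal1, the most abundant enzymes of the list, had log2 fold changes of 0.08 ± 0.11 and -0.17 ± 0.34, and St3gal6 had 0.54 ± 0.39. Of the 6 genes that build chains of sialic acid, 3 were tested and 3 were above 0, and St8sia6, whose disialic acid products are known ligands of Siglec-E, averaged 1.12 ± 0.365 CPM in CD43-KO and 0.531 ± 0.195 CPM in Vec tumours (1.07 ± 0.36, adjusted p = 0.250, edgeR). St8sia4, which makes polysialic acid, had a log2 fold change of 0.67 ± 0.34.

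The 4 sialidase genes, whose products remove sialic acid, gave 3 tested and 3 above 0. At an unadjusted p under 0.05 there were 0, beside 7.75% higher and 7.63% lower among all names. Neu1, the lysosomal sialidase gene, averaged 14.7 ± 3.65 CPM in CD43-KO and 14.6 ± 0.325 CPM in Vec tumours (0.01 ± 0.17), and Neu3 and Neu2 had log2 fold changes of 0.35 ± 0.23 and 1.32 ± 0.81. Of 13 carrier glycoproteins that bear sialylated glycans, 12 were tested, 7 above 0 and 5 below. At an unadjusted p under 0.05, 2 were higher and 2 lower, beside 7.75% and 7.63% of all names. Cd34, a mucin of endothelium and stroma, averaged 732 ± 48.1 CPM in CD43-KO and 847 ± 27.4 CPM in Vec tumours (-0.21 ± 0.08, adjusted p = 0.285 by edgeR, 0.0769 by DESeq2 and 0.0499 by limma voom, which called it lower), and Cd44, an adhesion receptor, had a log2 fold change of 0.18 ± 0.11. Spn and Ptprc, given above, are the other carriers that the naming rule picked.

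**Figure D5:**
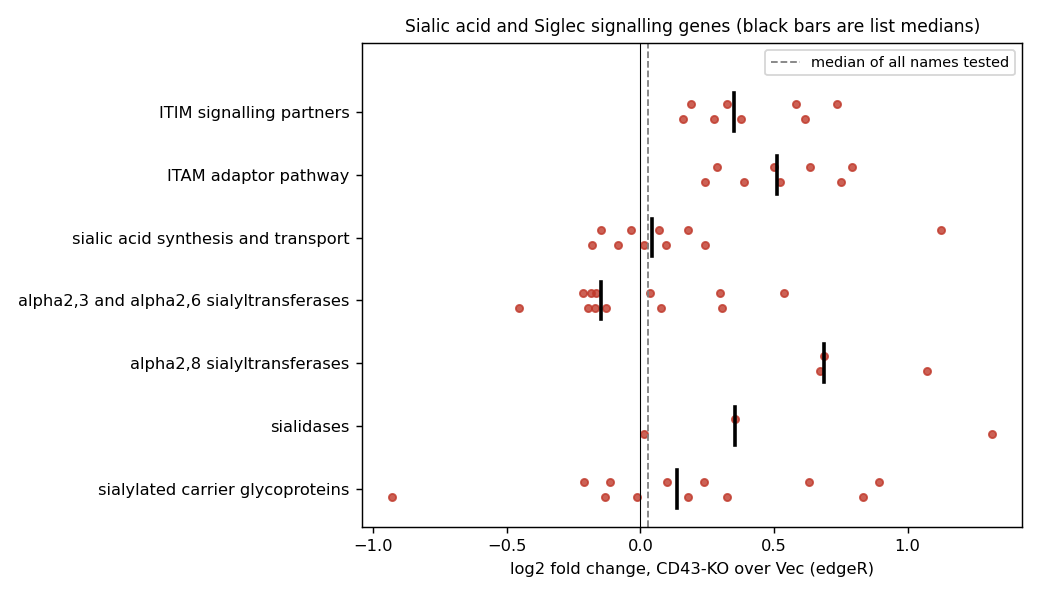
Log2 fold changes of CD43-KO over Vec (edgeR) for the tested genes of 7 lists of Siglec signalling and sialic acid genes, 1 point per gene. Black bars are list medians and the dashed line is the median of all names (0.03). All points of the ITIM and ITAM lists lie above 0, and the sialyltransferases of the linkages most Siglecs bind lie on both sides, with a median of -0.15.

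The genes whose levels followed each Siglec most closely over the 9 tumours were found by Pearson's r of log2 CPM. They are a description over libraries that share tumour make-up, picked as the highest of 18243 names. For Cd33 they were Msrb3 (r = 0.945), Qprt (0.942) and Syt15 (0.936), and r stayed at 0.847 or above when the 2 tumours farthest from the median of Cd33 were left out. For Siglec15 they were Ap3s2 (0.971), Zfp9 (0.965) and Fance (0.915), the last with a copy name, with 0.694 or above after leaving out such tumours. For Siglecf they were Cklf (0.974), Hipk3 (0.974) and Ccdc88c (0.964), of which Ccdc88c kept 0.965 without CD43-KO replicate 3 and Vec replicate 4. For Siglec1 they were Jund (0.925, with a copy name), Chst7 (0.904) and Tagap1 (0.901), all at 0.833 or above after the same step. For Siglecg they were Ccdc39 (0.939), P2rx2 (0.937) and Hspa1l (0.930, with a copy name), with 0.658 or above after it. For Siglece they were Ccdc78 (0.902), Taf8 (0.901) and Cnot2 (0.900), and these rested on CD43-KO replicate 1 and Vec replicate 2, since r was 0.355 to 0.662 without them.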

How the data were processed

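For each of 9 libraries the authors deposited a table of unscaled whole-number counts under gene symbols, per the file headers. HISAT2 2.1.0, StringTie 1.3.5, DESeq2 and the build GRCm38 are named, per the submitters' processing notes, with no role. How reads were counted, the annotation and the strand setting were not given in the sources used here. Copy suffixes marked 2346 of 42454 names. The main test ran in edgeR 4.0.16 under R 4.3.3 (filterByExpr with minimum count 10 and total 15, TMM, robust quasi-likelihood F test on group, Benjamini-Hochberg over 18243 names), with limma 3.58.1 and DESeq2 1.42.0 beside it. The standard error is the absolute log2 fold change over the square root of F. Members and lists were chosen with earlier results of these data known. All 36 pairs of libraries differed beyond sampling noise (chi-square per degree of freedom of 35.7 or more). The labels name a tumour-bearing mouse model but no animal per library, so p-values measure the spread between these samples. Named genes were the 6 Siglecs, Spn, Ptprc, Csf1r, Cd22, Mag and Siglech. In each pathway list they were up to 4 called genes, or else the 2 most abundant and the 2 with the smallest edgeR p, and for each Siglec the 3 genes of highest r. Predicted, clone and copy-suffix names were skipped. Start-site sequences are from RefSeq and transcript lengths from GENCODE. For marker lists the rule's genes are given for eosinophils, neutrophils, B cells and plasmacytoid dendritic cells. For the other lists sums, counts and a few defining genes are given. These defining genes and Ms4a1 were chosen after their values were seen.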

Additional observations from a re-analysis of the deposited data

Results flagged for a closer look

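Each group of 4 or 5 tumours was searched for a tumour far from the others in its Siglec levels and ratios, 36 groups in all, a search in which chance picks out about 1 in 20 groups. It found 4. Siglecf was at 0.975 CPM in CD43-KO replicate 3, above the other CD43-KO tumours. The log2 ratio of Siglec1 to Ptprc was -4.09 in CD43-KO replicate 3, below the other CD43-KO tumours. The log2 ratio of Siglecf was -11.9 to Ptprc and -13.2 to Csf1r in Vec replicate 4, where Siglecf had 0 counts, so both values are set by the 0.5 counts added.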

How the results depend on the processing

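No paired analysis was possible because the labels give no replicate number shared between CD43-KO and Vec, and the numbers used here follow accession order. The count of names called at an adjusted p under 0.05 was 0 by edgeR, 1 without a filter on low counts, 612 by DESeq2 (247 higher, 365 lower) and 497 by limma voom, and it ran from 0 to 29 as single tumours were left out (29 without Vec replicate 3). The cause was not tested. By DESeq2 the log2 fold change of Cd33 was 0.73, past the threshold. With a pseudocount of 1 CPM, which shrinks low genes by construction, the difference was 0.31 for Siglecf (exact p = 0.0635), -0.29 for Siglec15 (exact p = 0.0635), -0.21 for Siglece and 0.20 for Siglecg. The stricter filter kept Siglec1, Siglece and Cd33 and gave no value for the other members. Among the other settings that kept all tumours, 65 values were unchanged in direction and in side of the threshold, where these apply. They include counts of names called, which have no direction and stayed at 0. They also include Siglecf by DESeq2, which had no adjusted p and was taken as not called. With single tumours left out, the log2 fold change ran from -0.0077 to 0.36 for Siglec1, -0.53 to -0.06 for Siglece, 1.06 to 2.07 for Siglecf, 0.25 to 0.70 for Siglecg, -1.05 to -0.64 for Siglec15 and 0.64 to 0.85 for Cd33. The difference on the log2(CPM + 0.1) scale ran from -0.026 to 0.31 for Siglec1, -0.60 to -0.06 for Siglece, 0.76 to 1.37 for Siglecf, 0.23 to 0.65 for Siglecg, -0.94 to -0.61 for Siglec15 and 0.61 to 0.84 for Cd33. The log2 ratio to Ptprc ran from -0.93 to -0.32 for Siglec1, -1.68 to -0.81 for Siglece, 0.37 to 1.71 for Siglecf, -0.53 to -0.07 for Siglecg, -2.18 to -1.29 for Siglec15 and -0.20 to 0.10 for Cd33. That to Csf1r ran from -0.57 to -0.17 for Siglec1, -1.35 to -0.59 for Siglece, 0.38 to 2.12 for Siglecf, -0.37 to 0.26 for Siglecg, -1.85 to -1.14 for Siglec15 and 0.03 to 0.33 for Cd33. Signs turned for Siglec1, for Cd33 to Ptprc and for Siglecg to Csf1r, 12 cases in all. Depth limits Siglecf, Siglecg, Siglec15 and Siglece, whose lowest counts were 0, 15, 8 and 18.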
